A study of Mus musculus with 40 samples.

Results

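Osteopontin, encoded by Spp1, and 5 genes for chains of its cell surface receptors, Cd44, Itgav, Itgb1, Itgb3 and Itgb5, were followed as named rows of a table of 15958 genes, and all 6 were in it. The mice were wild type C57BL/6 males, 8 weeks old when operated on. Small bowel resection (SBR) took 50 to 60% of the small intestine by the sample labels, while the methods of the study give a larger share, and sham mice had an operation without resection. From 3 weeks after the operation, SBR mice were dosed by mouth each day, over 7 weeks, with either WUSTL0717 (30 mg/kg) or its vehicle. Sham mice received vehicle, and tissue was taken at 10 weeks. WUSTL0717 is an agonist of the liver X receptors (LXR, nuclear receptors for oxysterols). The study calls it putatively gut-restricted at the outset, and concludes from pharmacokinetics and LXR target genes that its action was restricted to the intestine. No sham group received the drug, so these libraries give its effect only after SBR. The study also dosed unoperated mice, which are not among these samples. Bulk RNA was sequenced from 18 livers (5 Sham Vehicle, 8 SBR Vehicle, 5 SBR WUSTL0717), 11 samples of duodenum and 11 of ileum taken below the anastomosis, each of these segments with 3, 4 and 4 samples of the same groups.

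Osteopontin is a secreted, phosphorylated glycoprotein of matrix and body fluids. It binds integrins through an arginine-glycine-aspartate motif, and binds the hyaluronan receptor CD44. Integrins are pairs of an alpha and a beta chain, and the alpha-v chain (Itgav) joins the beta-1, beta-3 or beta-5 chain (Itgb1, Itgb3, Itgb5) in receptors for osteopontin and for other matrix proteins. Itgb1 also pairs with many other alpha chains. In the liver, osteopontin is known from bile duct epithelium, macrophages of scarred tissue and activated stellate cells, and in the gut from epithelium and immune cells.

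In the GRCm38 build with GENCODE M21, Spp1 (ENSMUSG00000029304.14) lies at chr5:104435118-104441050 on the plus strand, Cd44 (ENSMUSG00000005087.17) at chr2:102811141-102901665 on the minus strand, and Itgav (ENSMUSG00000027087.11) at chr2:83724397-83806916 on the plus strand. Itgb1 (ENSMUSG00000025809.15) lies at chr8:128685654-128733200, Itgb3 (ENSMUSG00000020689.4) at chr11:104608000-104670476 and Itgb5 (ENSMUSG00000022817.15) at chr16:33829665-33949338, all on the plus strand. No other annotated gene overlaps Itgb1, Itgb3 or Itgb5, whereas unnamed transcripts or a pseudogene overlap the other 3, 1 each for Spp1 and Cd44 and 2 for Itgav. The 250 bases before a RefSeq start (GRCm38.p6) are shown for Spp1, at the first of its 2 starts, and for Cd44, the ligand and the non-integrin receptor, because both were higher in the resected liver. They were searched on both strands for TGTGGT, the core of RUNX sites, and TGANTCA, the AP-1 site, since factors of both families are known regulators of osteopontin. Capitals mark a match.
Spp1, chr5:104434861-104435110, plus strand: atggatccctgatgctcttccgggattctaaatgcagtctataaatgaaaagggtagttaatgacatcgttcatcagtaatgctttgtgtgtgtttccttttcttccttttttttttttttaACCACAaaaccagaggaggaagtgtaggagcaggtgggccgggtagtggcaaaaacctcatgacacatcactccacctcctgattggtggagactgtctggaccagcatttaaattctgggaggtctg
Cd44, chr2:102901666-102901915, minus strand: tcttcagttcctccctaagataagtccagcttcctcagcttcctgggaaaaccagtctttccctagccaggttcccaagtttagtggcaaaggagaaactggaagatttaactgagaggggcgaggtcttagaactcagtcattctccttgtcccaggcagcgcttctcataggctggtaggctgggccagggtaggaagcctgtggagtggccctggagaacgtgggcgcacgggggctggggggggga
The window of Spp1 shown holds 1 match to the RUNX core, read on the minus strand, at position -128 from the start. Of 32817 windows of this length before RefSeq starts, 14% hold that core and 6.8% hold TGANTCA. No match to either motif was found in the window of a second RefSeq start of Spp1, which ends at 104436191, in the Cd44 window or in those of Itgav, Itgb1 and Itgb5. Itgb3 had no entry.

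The values are log2 TPM (a transcript abundance scaled for transcript length and library total) after the batch correction of the authors. The intestinal libraries were 1 batch and the liver libraries the other, and the correction had no term for tissue. Liver and intestine cannot be told apart from the batches, and 99.35% of genes had means within 1 log2 unit between them. The intestinal disaccharidase gene Sis averaged 4.74 in liver and 4.95 in intestine, and the hepatocyte albumin gene Alb 9.35 and 8.27. Levels were therefore compared only within the liver or within the intestine, and never between genes. Library sums of back-transformed TPM ran from 618212 to 863110, and the read depth is unknown. The duodenum and ileum carried their own markers, with summed TPM of the ileal genes Fabp6 and Slc10a2 of 0.440 to 0.939 in duodenal and 85.8 to 517 in ileal libraries. The study gives its group sizes per tissue in mice, and the labels do not name the mouse behind a sample, so duodenum, ileum and liver were not matched by mouse.

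The comparison of SBR Vehicle with Sham Vehicle livers asked how the ligand and its receptors stood 10 weeks after resection. Spp1 was about 10 times higher, Cd44, Itgb5 and Itgav rose by less than 1 log2 unit each, and Itgb1 and Itgb3 did not pass the test. Thus 4 of 6 genes rose, where 41.9% of 15896 tested genes were called and 37.5% were called and higher (limma with Benjamini-Hochberg adjustment, adjusted p under 0.05). In Sham Vehicle livers, Spp1 was 3.04, 2.44, 2.92, 3.26 and 3.40 log2 TPM. In SBR Vehicle livers it was 5.62 at the lowest, 6.51 at the median and 6.72 at the highest. Every resected vehicle liver lay more than 2 log2 units above every sham liver. The log2 fold change of Spp1 was 3.31 (SE 0.24, n = 8 and 5, adjusted p = 1.27e-08 by limma), a 9.91-fold difference on this scale, and the 10th highest of 15896. The exact two-sided permutation p was 0.000777, the smallest that 8 against 5 libraries can give.

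**Figure D1:**
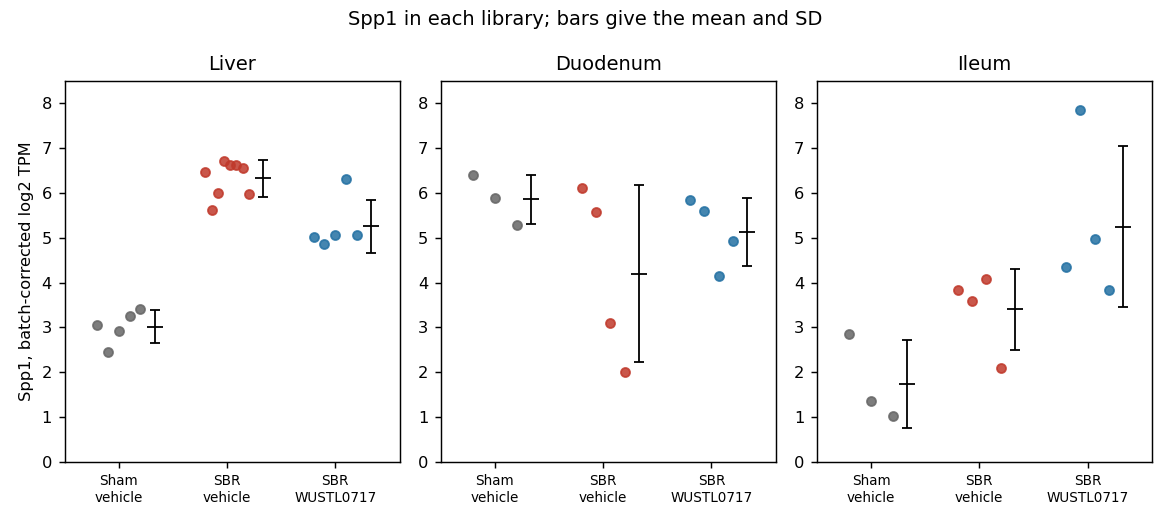
Spp1 in each library as batch-corrected log2 TPM (vertical axis, same range in the 3 panels), by group, with bars for the mean and SD. In liver the 3 groups center on 3.02, 6.32 and 5.26, with 1 SBR WUSTL0717 library at 6.31, and levels are not comparable between the liver panel and the other panels.

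Among the receptors, Cd44, the hyaluronan receptor that osteopontin also binds, was 2.88 at the lowest, 3.21 at the median and 3.35 at the highest in the 5 sham livers. It was 3.48, 4.07 and 4.53 in the 8 SBR Vehicle livers. The groups did not overlap, and the log2 fold change was 0.90 (SE 0.17, adjusted p = 0.000255 by limma). Itgb5, the beta-5 chain that pairs with alpha-v, was 5.52, 5.76 and 6.05 in sham livers and 6.34, 6.63 and 6.87 in SBR Vehicle livers. These groups did not overlap either, and the log2 fold change was 0.83 (SE 0.11, adjusted p = 4.71e-06 by limma). Groups of Spp1, Cd44 and Itgb5 were thus separate, 3 of 6 genes, where 15.6% of all tested genes had every SBR Vehicle liver above every sham liver. Itgav, the shared alpha-v chain, was 3.70, 3.78 and 3.95 in sham livers and 3.86, 4.52 and 4.73 in SBR Vehicle livers. SBR Vehicle replicate 2, at 3.86, lay within the sham range and the other 7 above it. Its log2 fold change was 0.62 (SE 0.14, adjusted p = 0.00169 by limma).

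The remaining beta chains did not pass the test. Itgb1, the chain common to many integrins, was 6.79, 6.96 and 7.03 in sham livers and 6.56, 7.24 and 7.57 in SBR Vehicle livers, with a log2 fold change of 0.27 (SE 0.13, adjusted p = 0.111 by limma). Without SBR Vehicle replicate 2, which was the lowest of its group for Itgb1, Itgav, Cd44, Itgb3 and Spp1, the value was 0.36 and passed (adjusted p = 0.00561). Itgb3, the beta-3 chain of platelets, osteoclasts and endothelium, was 2.51, 3.00 and 3.18 in sham livers and 2.16, 2.88 and 3.38 in SBR Vehicle livers, so that the resected group spanned the sham group. Its log2 fold change was -0.07 (SE 0.18, adjusted p = 0.769 by limma).

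The liver comparison carried a shift of all genes, with a median log2 fold change of 0.25 over the 15896 genes and 79.2% of them above 0. With each library centered on its median, 3248 genes were called higher and 4573 lower, against 5954 and 712 without centering. Relative to the library median, Spp1 was higher by 3.00, Cd44 by 0.59, Itgb5 by 0.52 and Itgav by 0.31, all past the threshold (largest adjusted p = 0.00106, limma). Itgb3 was then called lower, at -0.38 with centering (adjusted p = 0.0200) and -0.40 with quantile normalization (adjusted p = 0.0180), in the direction it had without scaling, whereas with library weights it was 0.03 and not called. Itgb1 turned to -0.04 with centering and was 0.06 with quantile normalization, neither called, whereas with library weights it was 0.36 and called higher (adjusted p = 0.000421). The rise of Spp1, Cd44, Itgav and Itgb5 held under both scalings.

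**Figure D2:**
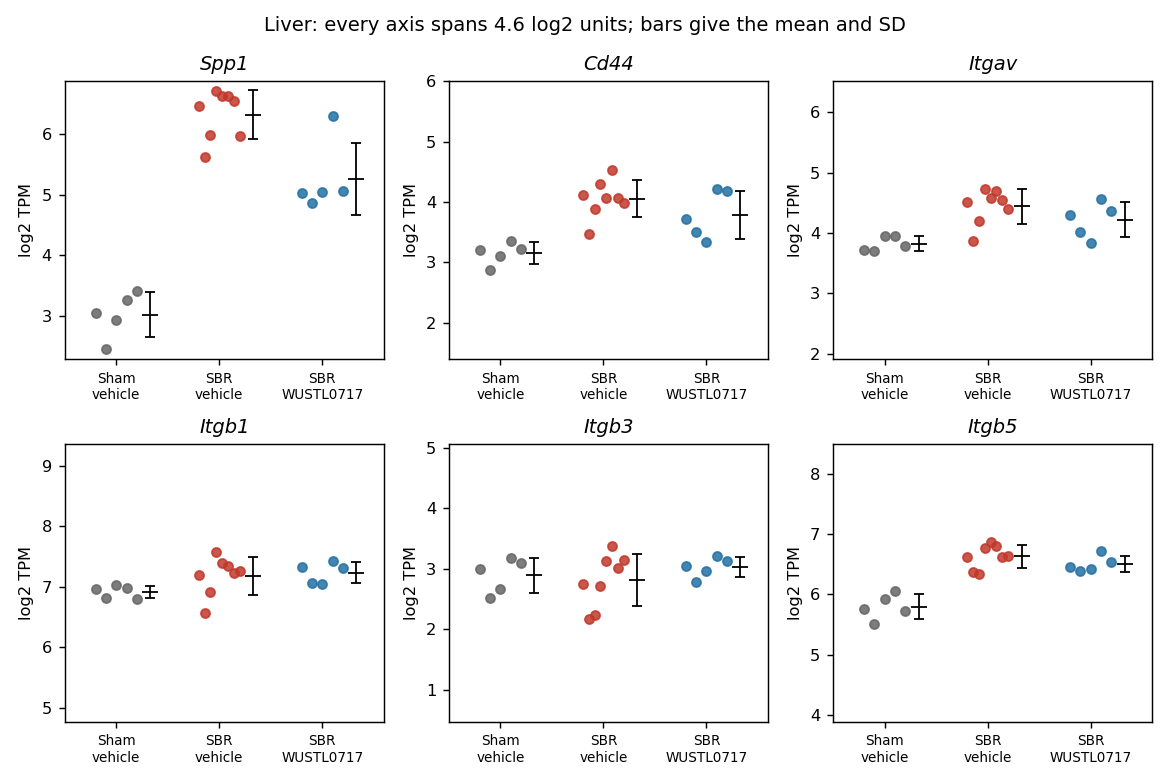
Liver values of the 6 genes in log2 TPM by group, 1 point a library, each vertical axis covering the same number of log2 units, with bars for the mean and SD. Spp1 moves over the widest range, and Cd44 and Itgb5 of SBR Vehicle livers sit above all sham livers. Itgb1 and Itgb3 of SBR Vehicle livers overlap those of sham livers, whereas Itgb1 of treated livers sits above all sham livers.

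The comparison of SBR WUSTL0717 with SBR Vehicle livers asked whether these genes stood at another level after treatment. Spp1 was lower with WUSTL0717 and the 5 receptor genes did not pass the test, so 1 of 6 genes was called, where 4.12% of tested genes were called and 2.67% were called and lower. That background of 655 genes ran from 99, without treated replicate 3, to 1067, without treated replicate 4. It was 119, 174 and 410 without treated replicate 2, treated replicate 1 and SBR Vehicle replicate 1. In SBR WUSTL0717 livers, Spp1 was 5.02, 4.86, 5.05, 6.31 and 5.06. Of these values, 4 lay below all 8 SBR Vehicle livers, and replicate 4, at 6.31, lay among them. The log2 fold change was -1.06 (SE 0.24, n = 5 and 8, adjusted p = 0.0177 by limma, exact two-sided permutation p = 0.00466), the 45th lowest of 15896. Without replicate 4 it was -1.33 (adjusted p = 0.000664). Without replicate 1, 2 or 3 of the treated group it was -1.01, -0.96 or -1.01 and missed the threshold (adjusted p = 0.0613, 0.0679 and 0.0697, limma). An unmoderated two-sample test called no gene at all (adjusted p of Spp1 = 0.121).

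For the receptors in the same comparison, the log2 fold change was -0.26 for Cd44 (SE 0.17, adjusted p = 0.467), -0.22 for Itgav (SE 0.14, adjusted p = 0.467) and -0.12 for Itgb5 (SE 0.11, adjusted p = 0.625) by limma. It was 0.05 for Itgb1 (SE 0.13, adjusted p = 0.914) and 0.22 for Itgb3 (SE 0.18, adjusted p = 0.630). SBR WUSTL0717 livers ranged from 3.34 to 4.22 for Cd44, 3.84 to 4.57 for Itgav, 7.04 to 7.43 for Itgb1, 2.79 to 3.22 for Itgb3 and 6.40 to 6.72 for Itgb5. Each of these ranges overlapped that of SBR Vehicle livers, and treated replicate 4 was the highest of its group for all 6 genes. With each library centered, Itgav passed at -0.22 (adjusted p = 0.0331), and with quantile normalization both Itgav and Itgb5 did, at -0.25 and -0.20 (adjusted p = 0.0203 and 0.0254), when 3127 and 2635 genes were called in all. With library weights Itgav passed too, at -0.29 (adjusted p = 0.0359, limma), when 2812 genes were called.

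Against sham, SBR WUSTL0717 livers kept a higher Spp1, Cd44 and Itgb5, 3 of 6 genes, where 28.7% of tested genes were called and 27.8% were called and higher. Spp1 differed by 2.24 (SE 0.26, adjusted p = 2.10e-05 by limma), Itgb5 by 0.71 (SE 0.12, adjusted p = 0.000446) and Cd44 by 0.64 (SE 0.18, adjusted p = 0.0163). Cd44 missed the threshold with centered libraries, at 0.33 (adjusted p = 0.0616), and without treated replicate 4 (adjusted p = 0.0604) or sham replicate 2 (adjusted p = 0.0520). Itgav, at 0.40 (adjusted p = 0.0629), and Itgb1, at 0.32 (adjusted p = 0.103), and Itgb3, at 0.14 (adjusted p = 0.598), did not pass. Itgav passed with a replicate block (adjusted p = 0.0258), in the compared groups alone (0.0343), with library weights (0.000838) and without treated replicate 3 (0.0266). Itgb1 passed in the unmoderated test (adjusted p = 0.0291), in the compared groups alone (0.0198) and with library weights (0.00218). Every treated liver lay above every sham liver for Spp1, Itgb5 and Itgb1, where 27.4% of all genes did so. This comparison and the previous ones share their libraries, and each gives its own values.

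In the duodenum, the segment kept upstream of the resection, none of the 6 genes passed the test in any comparison. Of all 15069 genes tested there, 0% were called for SBR Vehicle against Sham Vehicle, 0.272% for WUSTL0717 against vehicle and 0.737% for WUSTL0717 against sham. The 0 of the first comparison, by limma, stood beside 2426 genes at an unadjusted p under 0.05 and 1 gene called by the unmoderated test. It became 96 with centered libraries, 2579 with library weights and 307 without SBR Vehicle replicate 1, and with weights Cd44 and Itgb5 were among the genes called lower. Spp1 was 6.39, 5.89 and 5.29 in Sham Vehicle, 6.12, 5.58, 3.11 and 1.99 in SBR Vehicle, and 5.85, 5.60, 4.15 and 4.94 in SBR WUSTL0717 duodenum. SBR Vehicle libraries spread over more than 4 log2 units, from within the sham range to far below it. The log2 fold change was -1.66 after SBR (SE 0.85, adjusted p = 0.341) and 0.93 with WUSTL0717 (SE 0.78, adjusted p = 1) by limma. Without single libraries these ranged from -2.30 to -0.92 and from 0.20 to 1.57, and both extremes came from leaving out SBR Vehicle replicate 1 or 4. Cd44 was 4.28, 4.10 and 4.93 in Sham Vehicle, 4.63, 3.28, 1.50 and 1.93 in SBR Vehicle and 3.79, 2.46, 2.19 and 1.97 in SBR WUSTL0717 duodenum. The lower 2 SBR Vehicle libraries for Cd44 were also the lower 2 for Spp1. Its log2 fold change was -1.60 after SBR (SE 0.68, adjusted p = 0.290) and -0.24 with WUSTL0717 (SE 0.63, adjusted p = 1). The integrin chains Itgav, Itgb1, Itgb3 and Itgb5 differed by -0.91 to -0.16 after SBR and by -0.21 to 0.70 with WUSTL0717.

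In the post-anastomotic ileum, the segment below the join, none of the 6 genes passed either, where 0.349% of 15766 genes were called for SBR Vehicle against sham, 0.0698% for WUSTL0717 against vehicle and 2.16% for WUSTL0717 against sham. Spp1 was 2.86, 1.35 and 1.02 in Sham Vehicle, 3.82, 3.60, 4.09 and 2.09 in SBR Vehicle, and 4.34, 7.85, 4.96 and 3.83 in SBR WUSTL0717 ileum. The treated ileum lay above every sham ileum, and its replicate 2, at 7.85, far above the others. The log2 fold change was 1.66 after SBR (SE 0.84, adjusted p = 0.667), 1.85 with WUSTL0717 (SE 0.78, adjusted p = 0.693) and 3.51 for WUSTL0717 against sham (SE 0.84, adjusted p = 0.0539) by limma. Without single libraries the first ranged from 1.30 to 2.22 and the second from 0.98, without treated replicate 2, to 2.32. The value of WUSTL0717 against sham passed under a filter at a mean of 3 (adjusted p = 0.0312) and under 4 other settings. Leaving out 1 library at a time, that log2 fold change ranged from 2.64 to 4.06. The adjusted p ranged from 0.0453, without treated replicate 4, to 0.189, without sham replicate 2. Of all genes, 9.46% had every treated ileum above every sham ileum.

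Ileal Itgb1 was 6.01, 6.53 and 6.54 in sham and 7.75, 7.30, 7.38 and 7.41 in SBR Vehicle mice. The groups did not overlap, with a log2 fold change of 1.10 (SE 0.44, adjusted p = 0.464 by limma, exact two-sided permutation p = 0.0286, the smallest for 4 against 3), and 6.73% of all ileal genes had every SBR Vehicle above every sham library. Ileal Itgb5 was 6.54, 5.82, 5.89 and 5.39 in SBR Vehicle and 6.79, 6.87, 7.33 and 7.14 in SBR WUSTL0717 mice. These did not overlap either, with a log2 fold change of 1.12 (SE 0.31, adjusted p = 0.464 by limma, exact two-sided permutation p = 0.0286, the smallest for 4 against 4), where 2.56% of all ileal genes had every treated above every SBR Vehicle library. Cd44, Itgav and Itgb3 differed by 0.32 to 0.82 after SBR and by -0.34 to 0.12 with WUSTL0717 in the ileum.

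**Figure D3:**
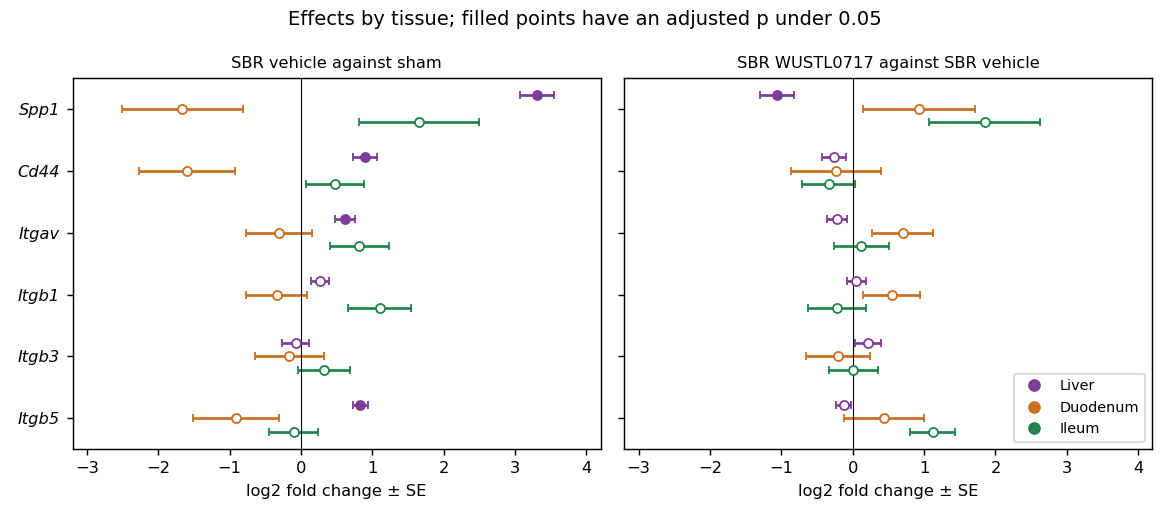
Log2 fold change with its SE (horizontal axis) of the 6 genes (rows) in liver, duodenum and ileum, for SBR Vehicle against sham on the left and WUSTL0717 against vehicle on the right, with filled points where the adjusted p was under 0.05. Filled points are liver points, 4 on the left and 1 on the right, and Spp1 after SBR lies at 3.31 in liver and -1.66 in duodenum.

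Effects were then compared between tissues as differences of differences, fitted with limma on the 9 groups. The signed effect of SBR was 3.31 in liver and -1.66 in duodenum for Spp1, 0.90 and -1.60 for Cd44, and 0.83 and -0.91 for Itgb5, so that the signs were opposite. The medians of all genes were opposite too, at 0.25 in liver, with 79.2% above 0, and -0.36 in duodenum, with 30.0% above 0. No duodenal effect passed the test by itself. The batch correction rescaled liver and intestine separately, so effects of the same sign in liver and a segment cannot be ranked by size. The liver minus duodenum difference was 4.97 for Spp1 (SE 0.89, adjusted p = 0.000116), 2.50 for Cd44 (SE 0.58, adjusted p = 0.00176) and 1.74 for Itgb5 (SE 0.47, adjusted p = 0.00617), where 29% of all genes differed. In ileum the effect was 1.66 for Spp1, 0.48 for Cd44 and 1.10 for Itgb1, against -1.66, -1.60 and -0.34 in duodenum. The ileum minus duodenum difference was 3.32 for Spp1 (SE 1.01, adjusted p = 0.0430), 2.08 for Cd44 (SE 0.65, adjusted p = 0.0478) and 1.44 for Itgb1 (SE 0.45, adjusted p = 0.0478), where 6.31% of all genes did. With centered libraries, Cd44 and Itgb1 missed the threshold in that contrast (adjusted p = 0.0502 and 0.0667). With library weights, Itgav passed for liver minus duodenum, at 1.51 (adjusted p = 0.00137, limma). Itgav and Itgb5 then passed for ileum minus duodenum, at 1.77 and 1.73 (adjusted p = 0.00869 and 0.0136, limma). The exact two-sided permutation p, not adjusted, was 0.0335 for Spp1, 0.0637 for Cd44 and 0.0114 for Itgb1 there, and 0.000155 for Spp1, 0.00675 for Cd44 and 0.0193 for Itgb5 between liver and duodenum. Between liver and ileum none of the 6 effects of SBR differed at the threshold, where 5.35% of genes did, and Spp1 gave 1.65 (SE 0.89, adjusted p = 0.380). Itgb1 passed there with centered libraries (-1.07, adjusted p = 0.0235) and with library weights (-0.77, adjusted p = 0.0453), with an exact permutation p of 0.0999, and Itgb5, at 0.93, had an exact permutation p of 0.0295, not adjusted. The liver minus ileum differences depend on the separate scaling of the batches and do not rank the tissues.
For the effect of WUSTL0717, no gene of the 6 passed between liver and duodenum, liver and ileum or ileum and duodenum, where 0.924%, 0.223% and 0.241% of all genes passed. The effect on Spp1 was -1.06 in liver and 1.85 in ileum, a difference of -2.91 (SE 0.85, adjusted p = 0.184, unadjusted p = 0.00153 by limma). Permuting treatment within each tissue gave an exact two-sided p of 0.000389 for that difference, not adjusted for the 36 differences computed for these genes. Without treated ileum replicate 2, the ileal effect in that difference was 0.98. Itgb5 gave -1.24 for the same contrast (SE 0.45, adjusted p = 0.381 by limma, exact two-sided permutation p = 0.00324). With library weights both passed, Spp1 at -2.48 (adjusted p = 0.0216) and Itgb5 at -1.18 (adjusted p = 0.0309).

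Between the intestinal segments, which were 1 batch, Spp1 averaged 1.60 log2 units higher in duodenum than in ileum over the 3 groups (SE 0.51, adjusted p = 0.00820 by limma). The integrin chains were lower in duodenum, with a difference of -1.34 for Itgb5 (SE 0.28, adjusted p = 0.000297), -1.28 for Itgb1 (SE 0.23, adjusted p = 6.86e-05), -0.79 for Itgb3 (SE 0.25, adjusted p = 0.00790) and -0.66 for Itgav (SE 0.25, adjusted p = 0.0222). Cd44 was -0.11 (SE 0.33, adjusted p = 0.769). So 5 of 6 genes were called, where 71.6% of all genes were. With centered libraries, Cd44 became 0.64 and Itgav 0.10, neither called, and Itgb3 was -0.03 and no longer called. Itgb5 was then -0.58 and Itgb1 -0.53, both still called (adjusted p = 0.0358 and 0.0306, limma), and Spp1 was 2.36. Centering shifts every gene alike, so part of the integrin differences was common to all genes. In sham mice, Spp1 was 5.29 to 6.39 in duodenum and 1.02 to 2.86 in ileum, and the segments did not overlap, where 37.9% of genes had sham segments apart and 7.13% had the duodenum above. In SBR Vehicle mice the segments overlapped, from 1.99 to 6.12 in duodenum and from 2.09 to 4.09 in ileum. In treated SBR mice they overlapped too, from 4.15 to 5.85 and from 3.83 to 7.85. The treated means were 5.14 in duodenum and 5.25 in ileum, and the medians 5.27 and 4.65, against sham means of 5.86 and 1.74. For Spp1 the segments were thus apart only in sham mice, and the average of 1.60 does not describe each group.

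Within the liver groups, receptor levels were related to Spp1 from library to library by a slope in limma with group as a term. The slope per log2 unit of Spp1 was 0.51 for Cd44 (SE 0.11), 0.48 for Itgb3 (SE 0.15), 0.43 for Itgav (SE 0.10), 0.35 for Itgb1 (SE 0.10) and 0.30 for Itgb5 (SE 0.07), all with adjusted p of 0.0119 or less. As many as 60.5% of all genes had a called slope, and with libraries centered on their median none of the 5 did, at adjusted p from 0.396 to 0.990. No relation particular to the receptors was therefore seen.

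Among the genes whose level followed Spp1 most closely over the 18 liver libraries, by Pearson r as a description, were Scara3 (0.995), Bicc1 (0.991), Col4a1 (0.990), Frzb (0.990), Mfge8 (0.989), Tmsb10 (0.989), Pdgfrb (0.988), Pak1 (0.988) and Col4a2 (0.988). Col4a1 and Col4a2 encode the chains of basement membrane collagen IV, Pdgfrb the PDGF receptor of stellate cells, and Mfge8 a ligand of alpha-v integrins. The lowest were the major urinary protein genes Mup11 (-0.956), Mup17 (-0.953), Mup15 (-0.953), Mup7 (-0.949) and Mup14 (-0.946), which hepatocytes express and whose near identical sequences make the split of reads between them uncertain. Among the receptors, r with Spp1 was 0.946 for Itgb5, 0.898 for Cd44, 0.856 for Itgav, 0.600 for Itgb1 and 0.103 for Itgb3, where the median gene had 0.532. The points share 3 groups that differ in level.
For Cd44 the nearest genes were Vav1 (0.982), Ptprc (0.980) and Dock2 (0.974), all expressed in leukocytes. For Itgav they were Atp7a (0.983), Exoc6b (0.982) and Fem1b (0.981), for Itgb1 Actr2 (0.982), Ywhab (0.981) and Ptbp3 (0.978), for Itgb3 Plbd1 (0.894), Mrps36 (0.888) and Siglece (0.887), and for Itgb5 Mapk3 (0.981), Myo1c (0.981) and Dgkz (0.981).

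Other genes of osteopontin and integrin biology were then read from fixed lists in liver. The other chains of osteopontin-binding integrins, Itga4, Itga5, Itga8, Itga9 and Itgb6, rose in 5 of 5 cases after SBR, where 37.5% of all genes were called and higher, with a list median of 0.72 against 0.25 for all genes. Itga8, the chain of alpha-8 beta-1 integrin known from stellate cells, was 1.53 at the lowest, 1.76 at the median and 1.89 at the highest in sham, 2.81, 3.41 and 4.10 in SBR Vehicle and 2.34, 2.52 and 3.12 in treated livers. It rose by 1.66 with SBR (adjusted p = 2.77e-06) and fell by 0.82 with WUSTL0717 (adjusted p = 0.0268, limma). Itgb6, the epithelial beta-6 chain, rose by 0.91 (adjusted p = 4.59e-05) and fell by 0.56 (adjusted p = 0.0308). Itga9 and Itga4 rose by 0.72 and 0.69. With WUSTL0717, 2 of the 5 fell, beside 2.67% of all genes, with a list median of -0.20 against 0.02.

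Of 6 measured enzymes that act on osteopontin, 3 rose after SBR and 3 did not pass, beside 37.5% of all genes called and higher, with a list median of 0.41 against 0.25. Mmp7, a protease known to cleave osteopontin and expressed by bile duct epithelium, was 1.92 at the lowest, 2.07 at the median and 3.79 at the highest in sham, 5.53, 6.85 and 8.14 in SBR Vehicle and 3.13, 3.76 and 6.37 in treated livers. It rose by 4.49 (SE 0.52, adjusted p = 1.77e-06) and fell by 2.50 with WUSTL0717 (SE 0.52, adjusted p = 0.0140, limma), the 1 gene of the 6 that fell, beside 2.67% of all genes, where the list median was -0.09 against 0.02. Tgm2, which crosslinks osteopontin, rose by 1.13 (adjusted p = 8.54e-06), and Mmp9 by 0.82 (adjusted p = 0.00259). Of 4 related ligands of the SIBLING family, Ibsp, Dmp1, Dspp and Mepe, 0 were measured.

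Other ligands of alpha-v integrins rose in 8 of 11 cases after SBR and fell in 1, where 37.5% of all genes were called and higher, with a list median of 1.49 against 0.25. Mfge8, which bridges apoptotic cells to integrins, rose by 1.81 (adjusted p = 1.08e-07), the microfibril gene Fbn1 by 1.92 (adjusted p = 2.06e-07), thrombospondin 1 (Thbs1) by 2.40 (adjusted p = 1.06e-06) and tenascin C (Tnc) by 1.55 (adjusted p = 1.53e-06). With WUSTL0717, 4 of 11 fell, where 2.67% of all genes did, with log2 fold changes of -0.85 for Fbn1, -0.77 for Tgfb3, a latent growth factor released by these integrins, -0.71 for Mfge8 and -0.68 for Tnc (adjusted p = 0.0157, 0.0228, 0.0196 and 0.0382, limma), and the list median was -0.68 against 0.02.

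Of 9 measured partners of CD44, 5 rose and 1 fell after SBR, beside 37.5% of all genes called and higher, with a list median of 0.91 against 0.25. Cd74, the invariant chain that signals with CD44 as the receptor of macrophage migration inhibitory factor, rose by 1.66 (adjusted p = 1.09e-07) and fell by 0.68 with WUSTL0717 (adjusted p = 0.0172). Ezr, which links CD44 to actin, rose by 1.70 (adjusted p = 6.54e-07) and fell by 0.78 (adjusted p = 0.0212). The linker Msn and the hyaluronan receptor Hmmr rose by 0.91 and 1.25. With WUSTL0717, 2 of 9 fell, beside 2.67% of all genes, with a list median of -0.13 against 0.02.
Of 12 measured genes of the adhesion machinery on integrin tails, 9 rose and 0 fell after SBR, beside 37.5% of all genes called and higher, with a list median of 0.47 against 0.25. The kinase Src rose by 1.95 (adjusted p = 2.58e-08), the epithelial kindlin Fermt1 by 1.63 (adjusted p = 1.18e-07), Lims1 by 0.94 and the blood cell kindlin Fermt3 by 0.71. With WUSTL0717, Fermt1 fell by 0.62 (adjusted p = 0.0246) and Src fell by 0.61 (adjusted p = 0.0298), 2 of 12 beside 2.67% of all genes, with a list median of -0.03 against 0.02. In duodenum and ileum, 0 genes of these lists were called in either comparison.

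**Figure D4:**
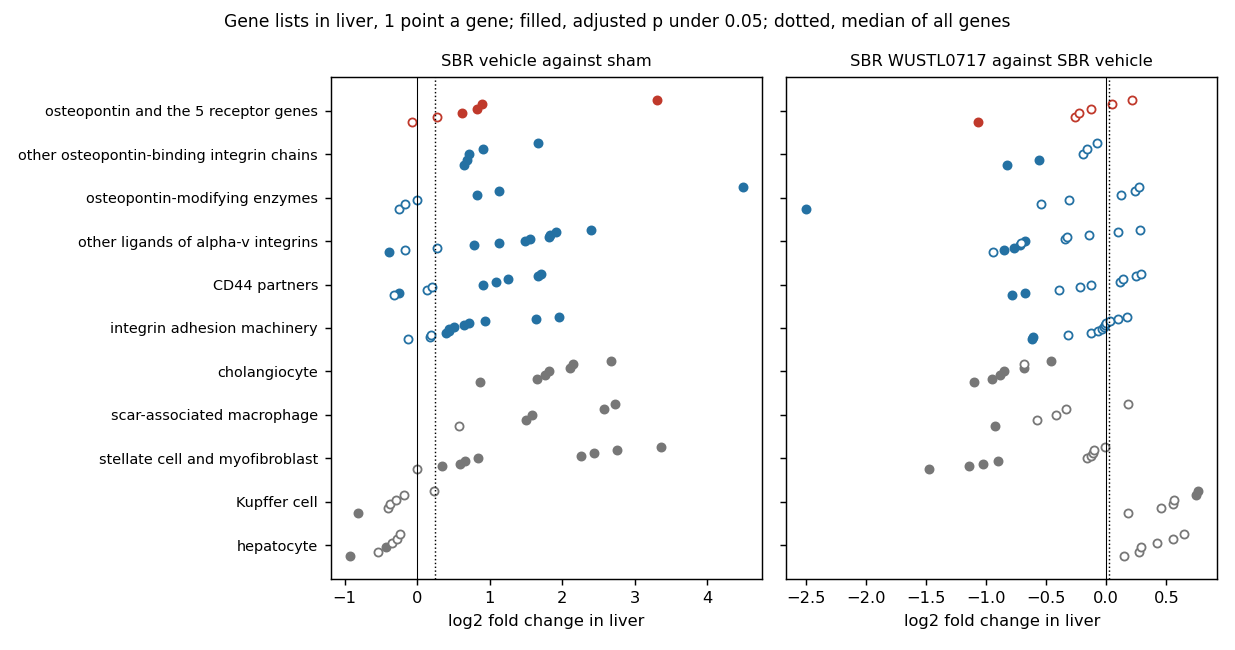
Log2 fold change in liver (horizontal axis) of each gene, 1 point a gene, by list (rows), with SBR Vehicle against sham on the left and WUSTL0717 against vehicle on the right, filled points where the adjusted p was under 0.05 and a dotted line at the median of all genes. Spp1 is the red point at 3.31 on the left and -1.06 on the right, and Mmp7 is the point at 4.49 and -2.50.

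Markers of the cells known to make osteopontin were read beside it, where 37.5% of all genes were called higher after SBR and 2.67% called lower with WUSTL0717. In bulk tissue, more cells of a type and more RNA per cell cannot be told apart. All 7 cholangiocyte (bile duct cell) markers rose after SBR, and 6 of 7 fell with WUSTL0717. Their summed TPM was 80.5 to 189 in sham, 397 to 779 in SBR Vehicle and 222 to 522 in treated livers, and 522 was treated replicate 4, the liver with the highest Spp1 of its group. Treated replicate 5, however, had 429 at an Spp1 of 5.06 log2 TPM, and treated replicate 3 had 222 at 5.05. Epcam rose by 2.68 and fell by 1.10, and Sox9 rose by 1.82 and fell by 0.95. Of 5 measured markers of scar-associated macrophages, 4 rose (Gpnmb by 2.72, Cd63 by 2.58, Lgals3 by 1.58 and Cd9 by 1.50) and 1, Cd63, fell with WUSTL0717, by 0.92, while the other 4 did not pass with it. Their sum was 61.1 to 79.5 in sham, 154 to 295 in SBR Vehicle and 121 to 287 in treated livers, with treated replicate 4 again the highest, replicate 5 at 207 and replicate 3 at 121. Of 9 markers of stellate cells and myofibroblasts, 8 rose, and 4 fell and 5 did not pass with treatment. Those that fell included Col1a1, which rose by 3.36 and fell by 1.47, and Col3a1, which rose by 2.75 and fell by 1.14. Their sum was 104 to 167 in sham, 344 to 588 in SBR Vehicle and 200 to 380 in treated livers, and 380 was treated replicate 4, with replicate 5 at 326 and replicate 3 at 200. Whether a marker was absent could not be read from a value of 0, since after the batch correction the intestinal gene Sis stood at 4.74 log2 TPM in every sham and treated liver. Their part in the change of Spp1, its receptors and the lists above was not tested.
Markers of hepatocytes and resident macrophages were read in the same way, where 4.48% of all genes were called and lower after SBR and 1.45% called and higher with WUSTL0717. Of 6 hepatocyte markers, 2 fell after SBR, with Cyp2e1 at -0.92 and Cps1 at -0.42, and 0 passed with WUSTL0717, where those with the smallest p were Cyp2e1 at 0.56 and Ass1 at 0.42. Of 6 Kupffer cell markers, Timd4 fell by 0.81 after SBR, and Clec4f and Timd4 rose by 0.75 and 0.76 with WUSTL0717 (adjusted p = 0.0448 and 0.0493, limma).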

How the data were processed

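RNA was sequenced from 40 samples after removal of ribosomal RNA. The authors aligned reads with STAR (2.7.9a1 in the submitters' processing notes) to GRCm38 with Ensembl annotation, counted uniquely placed reads with featureCounts (2.0.32 there), scaled the counts with edgeR, computed TPM, took log2 and applied ComBat between an intestinal and a liver batch. They deposited 1 table of log2 TPM values. No count or read total was used here, so depth and the precision it gives are unknown. The values lie between -1.69 and 18.4, and 2752 are below 0, which a batch correction can give. ComBat rescales each gene within a batch, so every difference is on the corrected log2 scale.

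Each tissue was fitted by itself with limma (3.58.1, R 4.3.3) on its 3 groups, using a variance trend and those genes whose mean log2 TPM there reached 1. P-values were adjusted after Benjamini and Hochberg over all genes tested, and genes were called at an adjusted p under 0.05. All 6 genes passed the filter in each tissue. Differences of effects were fitted on the 9 groups of tissue and treatment, and segments on the 22 intestinal libraries. Single genes were also compared with exact two-sided permutation tests. The fits were tested on simulated data with 200 genes changed. TPM sums assume a deposited scale of log2(TPM + 1). Other tools were Python 3.11.15, numpy, pandas and matplotlib. The 6 genes and the gene lists were chosen with earlier results of these data known. Named genes are the 6 genes in every comparison, of each other list in each liver comparison at most 4 called genes with the smallest p or, where none was called, the 2 with the smallest p, and the genes most like each of the 6 over the liver libraries (10 highest and 5 lowest for Spp1, 3 highest for a receptor gene), unnamed transcripts left out. Of these, 1 gene is not reported here. Alternatives were no filter, a filter at 3, pseudocounts of 0.1 and 5, library centering, quantile normalization, an unmoderated test, no variance trend, library weights, the compared groups alone, a replicate block and leaving out each library. All 40 libraries entered the results of the report.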

Additional observations from a re-analysis of the deposited data

Results flagged for a closer look

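Spp1 in liver of SBR WUSTL0717 replicate 4 was 6.31 log2 TPM, while the other 4 treated livers lay between 4.86 and 5.06, a gap of 0.859 of the group's range. It was the only lone library among 42 groups of values of the 6 genes examined in this way, and chance alone marks about 1 group in 20. In the comparison of effects between tissues, the signed effect of SBR in liver minus that in duodenum was 4.97 for Spp1, 2.50 for Cd44 and 1.74 for Itgb5 log2 units, with positive values in liver and negative ones in duodenum (adjusted p = 0.000116, 0.00176 and 0.00617, limma). The ileum minus duodenum difference, again positive against negative, was 3.32 for Spp1, 2.08 for Cd44 and 1.44 for Itgb1 (adjusted p = 0.0430, 0.0478 and 0.0478, limma), where the exact two-sided permutation p of Cd44, not adjusted, was 0.0637. These are 6 of 36 differences of effects tested. The median effect of SBR over all genes was 0.25 in liver, 0.07 in ileum and -0.36 in duodenum.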

How the results depend on the processing

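In liver, Spp1 rose after SBR under every alternative run, and without single libraries its log2 fold change ranged from 3.17 to 3.41. Its fall with WUSTL0717 kept its direction and missed the threshold in the unmoderated test (-1.06, adjusted p = 0.121), with a range of -1.33 to -0.96 without single libraries, and WUSTL0717 against sham ranged from 1.98 to 2.34. Of the 6 genes, the number called with WUSTL0717 against vehicle in liver was 2 with centering, 3 with quantile normalization, 0 in the unmoderated test and 2 with library weights, and 0 to 1 without single libraries. Against sham it was 5 with weights and 5 in the compared groups alone. In duodenum, weights called 2 for SBR against sham and 1 for WUSTL0717 against sham. In ileum, 1 was called for WUSTL0717 against sham with the filter at 3, the pseudocount of 0.1, centering, quantile normalization and weights, and 0 to 1 without single libraries. Directions reversed as follows, and the cause was not tested. With centering they did so for Itgb1 (-0.039) after SBR in liver, Itgb3 (-0.16) for WUSTL0717 against sham in liver, Itgav (0.10), Itgb1 (0.068) and Itgb3 (0.24) after SBR in duodenum, the liver minus duodenum effect of SBR for Itgb1 (-0.11) and Itgb3 (-0.63) and of WUSTL0717 for Cd44 (0.018), and duodenum minus ileum for Cd44 (0.64) and Itgav (0.10). With quantile normalization they did so for Itgb1 (-0.030) with WUSTL0717 and Itgb3 (-0.15) for WUSTL0717 against sham in liver, and for Itgav (0.075) and Itgb3 (0.25) after SBR in duodenum. With library weights they did so for Itgb3 (0.032) after SBR and Itgb1 (-0.020) with WUSTL0717 in liver, Itgb5 (0.068) after SBR and Itgav (-0.25) and Itgb3 (-0.24) with WUSTL0717 in ileum, and the ileum minus duodenum effect of WUSTL0717 for Spp1 (-0.051) and Itgb3 (-0.0089). With the pseudocount of 0.1, ileal Itgb3 with WUSTL0717 was -0.00016. Without single libraries, ranges crossed 0 for Itgb3 after SBR in liver (-0.17 to 0.019) and duodenum (-0.50 to 0.20), Itgb1 with WUSTL0717 in liver (-0.038 to 0.11), Cd44 (-0.68 to 0.36) and Itgb3 (-0.47 to 0.13) with WUSTL0717 in duodenum, Itgb5 after SBR in ileum (-0.37 to 0.16), and Itgav (-0.29 to 0.30), Itgb1 (-0.68 to 0.00020) and Itgb3 (-0.19 to 0.29) with WUSTL0717 in ileum. Counts of all genes called in liver ran from 4180 (filter at 3) to 10458 (weights) after SBR, and from 0 (unmoderated test) to 3127 (centering) with WUSTL0717. Same-numbered libraries correlated over 0.1 in 2 of 15 pairs in liver, 3 of 10 in duodenum, 1 of 10 in ileum and, between duodenum and ileum of the same group, 5 of 11 (median 0.083, highest 0.447). Between the segments, the median for other numbers was -0.043. By the rule that every pair exceed 0.1, numbers were not used to pair samples, which does not show that the samples came from different mice. Differences of effects were fitted without a block, as if samples were independent. With the number and group as a replicate block, Spp1 averaged 1.37 higher in duodenum than in ileum over the 3 groups (adjusted p = 0.0339, limma), and no segment call changed. With a replicate block Spp1 in liver was 3.27, -1.03 and 2.24, 487 genes were called with WUSTL0717, and of the 6 genes 4, 1 and 4 were called. Depth is unknown and set no limit that could be computed.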

Other observations

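Other cell markers in liver were read beside the osteopontin genes, where 37.5% of all genes were called and higher after SBR, with a median of 0.25, and 2.67% called and lower with WUSTL0717. Counts on these short lists are given as values. The platelet gene Pf4, the only measured gene of 6 on its list, rose by 1.30 after SBR, and the neutrophil genes Csf3r and S100a9 rose by 1.16 and 1.15, 2 of 2 measured, while none of these 3 passed with WUSTL0717. Of 4 measured T and NK cell genes, Nkg7 and Trbc2 rose by 0.51 and 0.61 after SBR, and of 2 B cell genes neither passed, with Cd79b at 0.34 and Cd79a at 0.21. Of 5 endothelial genes, Stab1 rose by 0.46. Of 5 smooth muscle genes, Des, also on the stellate cell list, rose by 0.84, while Myh11, Actg2 and Cnn1 were at -0.22, -0.34 and -0.21 and the list median was -0.21, and of 5 genes of intestinal epithelium, Vil1, Lgals4 and Krt20 rose by 1.04, 0.52 and 0.27, and Vil1 fell by 0.69 with WUSTL0717. Krt20 stood at the same 5.00 log2 TPM at the lowest and median of sham livers and the lowest of treated livers, a repeated value like that of Sis. Of 3 genes of duodenal identity, Gata4 rose by 0.43 after SBR, and of 2 genes of ileal identity neither passed in liver, whereas both rose in the ileum after SBR, where 0.349% of all genes were called. The part of these cells in the levels of the osteopontin genes was not tested.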
